A study of Mus musculus with 12 samples.

Results

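Neurons build an axon and dendrites from microtubules, neurofilaments and an actin-rich growth cone, and the 10 genes described here encode parts of that equipment. Tubb3 is a tubulin made by young neurons, Map2, Mapt and Dcx bind microtubules, Stmn2 takes microtubules apart, and Nefl and Nefm are neurofilament subunits. Gap43 is a protein of growth cones, and L1cam and Ncam1 are immunoglobulin-type adhesion molecules on axons. The members were the array probes whose symbol in the platform's probe annotation was one of these 10 genes. That gave 12 probes, 3 of them for Ncam1 and 1 for each other gene, and 10 of 15063 named genes on the array. Of the 10 genes 9 had enough values to be tested, among 14418 features in all, and Nefl did not.

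In the embryonic cortex neurons leave the cell cycle next to the ventricle and move outwards, and they switch these genes on as they grow their processes. Neurogenesis in the mouse neocortex follows gradients across its surface, so the ratio of neuronal to progenitor transcripts can differ between places of one age. Such a ratio describes a piece of tissue, and in bulk RNA fewer neurons and less RNA per neuron cannot be told apart.

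The tissue was neocortex of mouse embryos at E13.5. The front and the back end of the neocortex were each pooled from 3 embryos per the sample descriptions, where the design text says at least 2, and there were 3 such pools for MF1, an outbred strain, and 3 for C57, an inbred one that the design text gives as C57Bl\6. No mutation, transgene or treatment is named in the labels for either strain. Both RNAs of a pool, amplified as SMART cDNA per the design text, were hybridised together on 2 arrays with the dyes Cy3 and Cy5 exchanged, which makes 12 arrays. Each value below is the log2 of the rostral signal over the caudal one, averaged over the 2 arrays of a pool and taken relative to the median of each array: 1 unit is a 2-fold difference, and values below 0 lie lower rostrally. The ratios hold no expression level, so the tissue could not be checked against its markers and no gene is ranked against another by abundance.

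Which dye was the numerator was inferred, so the sign of all ratios is likely rather than known. Under the sign used, Nr2f1, a nuclear receptor of caudal cortex, was below 0 in 6 of 6 pools and Sfrp1, a secreted Wnt inhibitor, above 0 in 6 of 6. An array had values for 17998 to 20997 of its 21998 probes. MF1 pool 3 stood apart from the other MF1 pools. Across 17202 and 17491 probes its ratios had Spearman correlations of -0.179 and -0.207 with MF1 pools 1 and 2, which had a correlation of 0.247 with each other across 17099 probes. Nr2f1 and Sfrp1 kept their sides in that pool, at -0.89 and 1.10. Values without MF1 pool 3 are given beside most of the members' means over both strains and beside some of the gene lists. The design text matches rostral and caudal tissue within litters and does not say whether the pools of a strain came from different litters, so p-values measure only how these pools vary, which may be in part technical.

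Over both strains, 8 of the 9 genes tested had a mean within 0.20 of 0, and Mapt lay lower rostrally at -0.28. Of all features tested, 60.9% had a mean no farther from 0 than Dcx, at 0.198, and 74.7% no farther than Mapt. The 9 genes had a median of -0.03, with 4 above 0 and 5 below, beside a median of 0.01 over all features tested, of which 51.6% were above 0. The place of 0 rests on the centring of the arrays: without it the median of all features was -0.18, that of the 9 genes -0.22, and 1 of the 9 was above 0. In limma's fit of the pool means over all features, 0 of the 9 passed at an adjusted p under 0.05, and the same held for 0 of 14418 features (0%). At an unadjusted p under 0.05 there was 1 member, Mapt, beside 8.98% of all features. There were 0 when MF1 pool 1, MF1 pool 2 or C57 pool 2 was left out, beside 6.09%, 6.84% and 7.63%. When MF1 pool 3 was left out the 1 member was Dcx (limma, adjusted p = 0.461) and not Mapt (adjusted p = 0.485), beside 10.2%. In MF1 alone there were 0 at an unadjusted p under 0.05, beside 4.36% of features, and in C57 alone 1, again Mapt, beside 9.71% of features in either direction and 5.48% lower. For the difference between the strains there were 0, beside 6.1% of features. After limma's adjustment these 3 comparisons also had 0 of 14418 features.

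**Figure D1:**
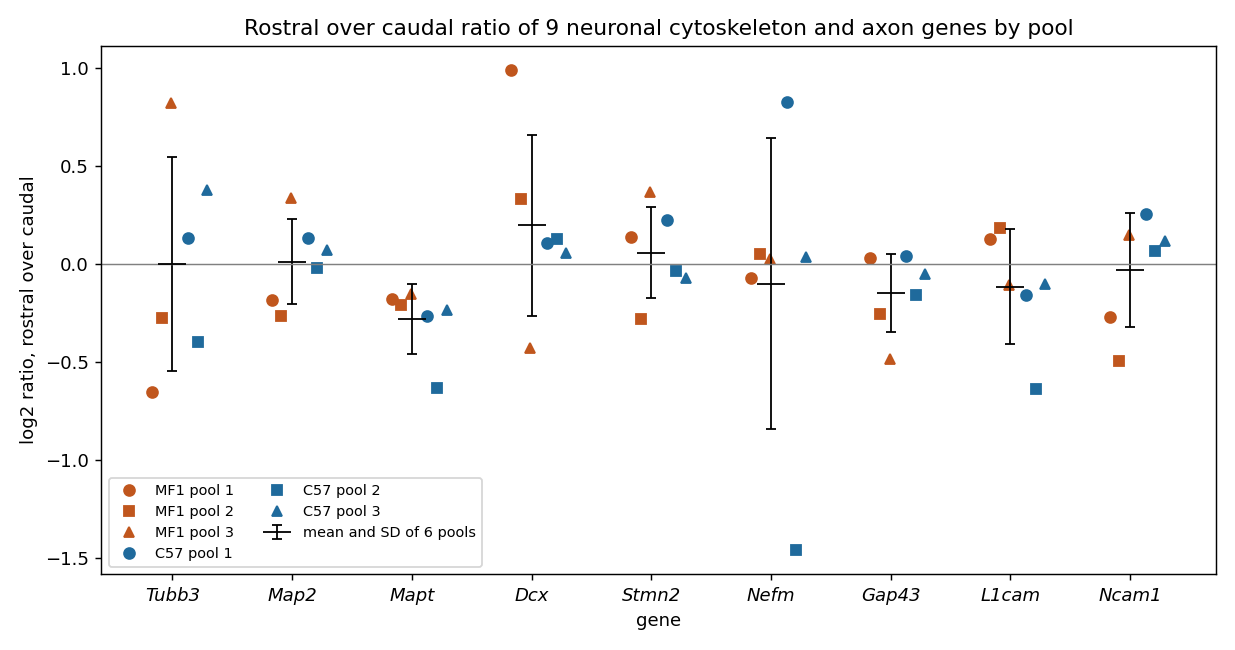
Log2 ratio of rostral over caudal cortex (vertical axis) of the 9 tested genes (horizontal axis) in 6 pools, with orange for MF1, blue for C57 and the marker shape for the pool number; black bars are the mean and SD of the 6 pools. Mapt is below 0 in every pool, between -0.635 and -0.153, while the MF1 pools of Tubb3 span -0.65 to 0.82 and those of Dcx -0.43 to 0.99.

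Mapt encodes tau, the microtubule-binding protein of axons. Its ratio was -0.18, -0.21 and -0.15 in MF1 pools 1 to 3 and -0.27, -0.64 and -0.24 in C57 pools 1 to 3. Every pool lay below 0, and every C57 pool lay below every MF1 pool. The mean was -0.28 ± 0.18 (SD, n = 6 pools), a 1.21-fold lower rostral signal, with a 95% interval of the fitted log2 ratio from -0.54 to -0.02. This was not past the threshold over all features (limma, unadjusted p = 0.0385, adjusted p = 0.538). Of the features with 6 pools, 2.5% were below 0 in 6 of 6.

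On single arrays Mapt had no value above 0. With rostral RNA in Cy3 its ratios were -0.06, -0.02 and -0.23 in MF1 and -0.08, -0.72 and -0.31 in C57. With rostral RNA in Cy5 they were -0.30, -0.40 and -0.07 in MF1 and -0.45, -0.55 and -0.17 in C57. Below 0 on 12 of 12 arrays were 0.235% of the features measured on all of them, 25 of 10622. The arrays of a pool share their RNA, so these are 6 pools and not 12 replicates. The pools of MF1 averaged -0.18 ± 0.03 (SD, n = 3) and those of C57 -0.38 ± 0.22. The difference of 0.20, MF1 minus C57, did not pass (limma, adjusted p = 0.966, 95% interval -0.32 to 0.72). Of the features with 6 pools, 9.46% had every MF1 pool on one side of every C57 pool. C57 pool 2 held the lowest ratio, and without it the mean of Mapt over both strains was -0.22, the C57 mean -0.25 and the difference between the strains 0.07.

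Map2, a microtubule-binding protein of dendrites and cell bodies, is related to tau in its binding domain. Its ratio was -0.18, -0.27 and 0.34 in the MF1 pools and 0.13, -0.02 and 0.07 in the C57 pools. The pools divided evenly about 0, and MF1 pool 3 was the highest of the 6. The mean was 0.01 ± 0.22 (SD, n = 6; limma, adjusted p = 0.98). The 95% interval of the fitted ratio, as a fold, ran from 0.824 to 1.24, so a rostral difference larger than this lies outside it. Without MF1 pool 3 the mean was -0.08, and with arrays scaled to a common spread it was -0.0068.

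Tubb3, the neuronal beta-tubulin, varied more between pools. Its ratio was -0.65, -0.27 and 0.82 in the MF1 pools and 0.13, -0.40 and 0.38 in the C57 pools. MF1 pools 1 and 3 were the lowest and the highest of the 6. The mean was 0.0014 ± 0.55 (SD, n = 6; limma, adjusted p = 0.998), and it was -0.21 without MF1 pool 3 and 0.16 without MF1 pool 1.

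Dcx, doublecortin, which bundles microtubules in migrating neurons, ran the other way in MF1. Its ratio was 0.99, 0.33 and -0.43 in the MF1 pools and 0.11, 0.13 and 0.06 in the C57 pools. It was high in MF1 pool 1, where Tubb3 was low, and low in MF1 pool 3, where Tubb3 was high. The C57 pools of Dcx lay close together just above 0, at 0.10 ± 0.04 (SD, n = 3), against 0.30 ± 0.71 in MF1. Over both strains the mean was 0.20 ± 0.46 (SD, n = 6), above 0 in 5 of 6 pools (limma, adjusted p = 0.771). It was 0.38 without MF1 pool 3 (adjusted p = 0.461) and 0.03 without MF1 pool 1 (adjusted p = 0.983), so its size rests on these 2 pools. Without MF1 pool 3 Dcx was the 1 member at an unadjusted p under 0.05 (limma), beside 10.2% of features.

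Stmn2, a stathmin of growth cones, had ratios of 0.14, -0.28 and 0.37 in the MF1 pools and 0.22, -0.03 and -0.07 in the C57 pools. It was on either side of 0 in both strains. The mean was 0.06 ± 0.23 (SD, n = 6; limma, adjusted p = 0.911), and -0.02 without MF1 pool 3.

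Of the 9 genes, 5 had MF1 pool 3 on the other side of 0 from both MF1 pools 1 and 2, namely Dcx, Tubb3, Map2, L1cam and Ncam1. Among all features with 3 MF1 pools this share was 40.9%, so the members' count lies near the background. Dcx and L1cam were above 0 in pools 1 and 2 and below in pool 3, and Tubb3, Map2 and Ncam1 the reverse. Dcx and Tubb3, both made by young neurons, therefore had ratios on opposite sides of 0 in each of the 3 MF1 pools.

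The stretches just upstream of the start site are shown for Dcx on one side and for Tubb3 and Map2 on the other, because their ratios in the MF1 pools lay on opposite sides of 0. Capitals mark CpG dinucleotides, and each stretch is 250 bases long, read 5′ to 3′ on the strand of the gene, from RefSeq on build GRCm38.p6. For Dcx it is chrX:143933220-143933469 on the minus strand, for Tubb3 chr8:123411303-123411552 on the plus strand and for Map2 chr1:66175079-66175328 on the plus strand.
Dcx: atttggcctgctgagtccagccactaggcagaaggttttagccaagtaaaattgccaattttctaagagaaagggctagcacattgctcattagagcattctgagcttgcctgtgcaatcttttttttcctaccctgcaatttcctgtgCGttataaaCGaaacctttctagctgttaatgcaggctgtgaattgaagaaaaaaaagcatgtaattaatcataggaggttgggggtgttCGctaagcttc
Tubb3: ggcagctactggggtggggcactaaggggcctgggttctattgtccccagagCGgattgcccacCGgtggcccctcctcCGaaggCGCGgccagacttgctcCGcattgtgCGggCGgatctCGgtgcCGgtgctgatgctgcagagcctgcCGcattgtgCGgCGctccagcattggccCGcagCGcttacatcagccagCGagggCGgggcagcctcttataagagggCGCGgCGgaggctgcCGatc
Map2: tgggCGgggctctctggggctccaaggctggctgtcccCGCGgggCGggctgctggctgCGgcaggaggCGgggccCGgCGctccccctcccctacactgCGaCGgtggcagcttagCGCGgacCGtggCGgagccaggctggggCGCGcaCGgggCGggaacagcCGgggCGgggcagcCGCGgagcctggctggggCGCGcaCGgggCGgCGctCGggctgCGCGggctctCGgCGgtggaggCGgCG

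The upstream stretch of Dcx held 3 CpG dinucleotides and 41.6% G and C, that of Tubb3 21 and 68% and that of Map2 34 and 81.2%, against medians of 6 and 52.4% over 32851 such stretches. L1cam, the other member found among the 4 with an entry, had 12 and 63.2%, and it lay on the same sides of 0 as Dcx in the MF1 pools. A link between these letters and the ratios was not tested. The E-box CANNTG, the letters bound by proneural factors of the basic helix-loop-helix class, reads the same on both strands. It was present 2 times in the stretch of L1cam and 0 times in those of Dcx, Tubb3 and Map2, and 66.2% of all stretches held it. CAGATG, searched on both strands as CAGATG or CATCTG and contained in CANNTG, was present 1 time in L1cam and in 14.4% of all stretches. A match is a description of these letters alone. Mapt, Gap43, Stmn2, Nefl, Nefm and Ncam1 are named without a sequence.

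Nefm, the medium neurofilament subunit, had a narrow range in MF1 and a wide one in C57. Its ratio was -0.07, 0.05 and 0.02 in the MF1 pools and 0.83, -1.46 and 0.04 in the C57 pools. The highest and the lowest pool were both C57 pools. The mean was -0.10 ± 0.74 (SD, n = 6; limma, adjusted p = 0.928), and it was 0.22 without C57 pool 2 and -0.36 without C57 pool 1. On single C57 arrays Nefm ran from -2.39 to 2.58. Nefl, the light subunit, whose gene has 0 protein-coding genes between it and Nefm, had no pool of C57 with a value in both dye orientations. Its MF1 pools were at 0.69, -1.29 and -2.62, and the 2 arrays of MF1 pool 3 differed by 5.17. Its 3 single C57 arrays with a value were at -0.24, 1.84 and 5.34. Nefl was therefore not tested, and no direction is given for it.

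Gap43, a membrane protein of growing axon tips, was mostly below 0. Its ratio was 0.03, -0.26 and -0.48 in the MF1 pools and 0.04, -0.16 and -0.05 in the C57 pools. It was below 0 in 4 of 6 pools and on 10 of 12 arrays, and the 2 pools above 0 lay within 0.04 of it. The mean was -0.15 ± 0.20 (SD, n = 6; limma, adjusted p = 0.728), with a 95% interval of -0.42 to 0.13. Without MF1 pool 3, the lowest, it was -0.09.

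L1cam had ratios of 0.13, 0.19 and -0.11 in the MF1 pools and -0.16, -0.64 and -0.10 in the C57 pools. All C57 pools lay below 0, and MF1 pool 3 lay among them. The mean was 0.07 ± 0.15 (SD, n = 3) in MF1 and -0.30 ± 0.29 in C57. The difference of 0.37 did not pass (limma, adjusted p = 0.944, 95% interval -0.21 to 0.95). It was 0.20 without C57 pool 2, the lowest pool, and the MF1 mean was 0.16 without MF1 pool 3. Over both strains the mean was -0.12 ± 0.29 (SD, n = 6; limma, adjusted p = 0.804), -0.03 without C57 pool 2 and -0.07 without MF1 pool 3.

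Ncam1, averaged over its 3 probes, had ratios of -0.27, -0.50 and 0.15 in the MF1 pools and 0.26, 0.07 and 0.12 in the C57 pools. All C57 pools lay above 0 and MF1 pools 1 and 2 below it. The mean of the MF1 pools was -0.20 ± 0.33 (SD, n = 3) and that of the C57 pools 0.15 ± 0.10. Their difference of -0.35 did not pass (limma, adjusted p = 0.947). Without MF1 pool 2 the MF1 mean was -0.06 and the difference -0.20, and without MF1 pool 3 they were -0.38 and -0.53. Over both strains the mean was -0.03 ± 0.29 (SD, n = 6; limma, adjusted p = 0.953), 0.04 without MF1 pool 2 and -0.12 without MF1 pool 3.

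The probes of Ncam1, numbered by their identifiers, did not give the same picture. Probe 1 was at -0.14, -0.57 and 0.04 in the MF1 pools and at 0.08, 0.04 and -0.03 in the C57 pools. Probe 2 was at -0.95, -0.96 and 0.33 in MF1 and at 0.57, -0.13 and 0.16 in C57. Probe 3 was at 0.29, 0.04 and 0.08 in MF1 and at 0.12, 0.28 and 0.22 in C57, above 0 in all 6 pools, as were 3.47% of features with 6 pools. The transcript of this gene is spliced into several forms, and which of them each probe reads was not analysed here. Fitted by themselves, the probes had means of -0.10, -0.16 and 0.17 over both strains, and 0 of them passed (limma over 15289 probes, adjusted p of 0.827, 0.826 and 0.646). The low MF1 mean of the gene rests on probe 2, at -0.53 in MF1, and probe 1, at -0.22, against 0.14 for probe 3.

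**Figure D2:**
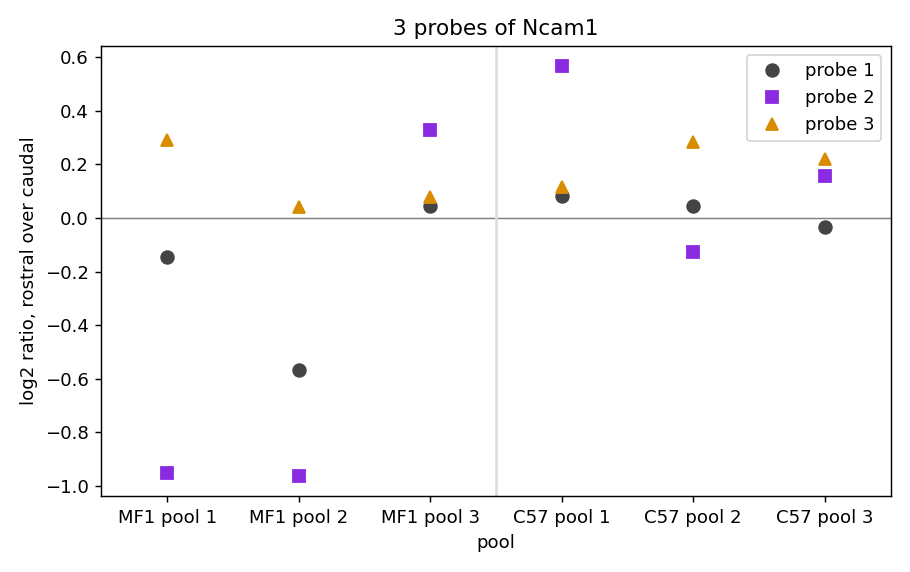
Log2 ratio of rostral over caudal cortex (vertical axis) of the 3 probes of Ncam1 in each pool (horizontal axis), MF1 left and C57 right of the grey line; each point is the mean of the 2 arrays of a pool. Probe 2 is at -0.95 and -0.96 in MF1 pools 1 and 2, while probe 3 stays above 0 in all 6 pools.

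The sign of several members depended on the dye in C57. With rostral RNA in Cy3 the mean of the C57 arrays was -0.41 for Tubb3, -0.37 for Map2 and -0.27 for Stmn2. With rostral RNA in Cy5 it was 0.48, 0.49 and 0.35. For these 3 genes every C57 array of the first kind was below 0 and every one of the second above it. Such an array-by-array split was seen for 3 of the 9 members in C57 and 0 in MF1, beside 15.9% and 4.59% of all features measured on the 6 arrays of the strain, counted with either dye on either side. Nefm had means of -1.33 and 0.93 in C57 by the same comparison, and Dcx -0.17 and 0.37. In MF1 Dcx differed by dye in the other direction, at 0.61 with rostral RNA in Cy3 and -0.01 with it in Cy5. So did Stmn2 in MF1, at 0.36 and -0.21. Mapt had nearly the same mean in C57 either way, at -0.37 and -0.39, and -0.11 and -0.26 in MF1. The absolute gap between both arrays of a pool had a median of 0.812 for Map2 in C57 and of 0.049 in MF1, against 0.643 and 0.357 over all features tested. In C57 and MF1 this gap was 0.971 and 0.143 for Tubb3, 0.631 and 0.551 for Stmn2, and 0.65 and 0.871 for Dcx. Averaging both orientations cancels a dye effect that is equal on both arrays.

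**Figure D3:**
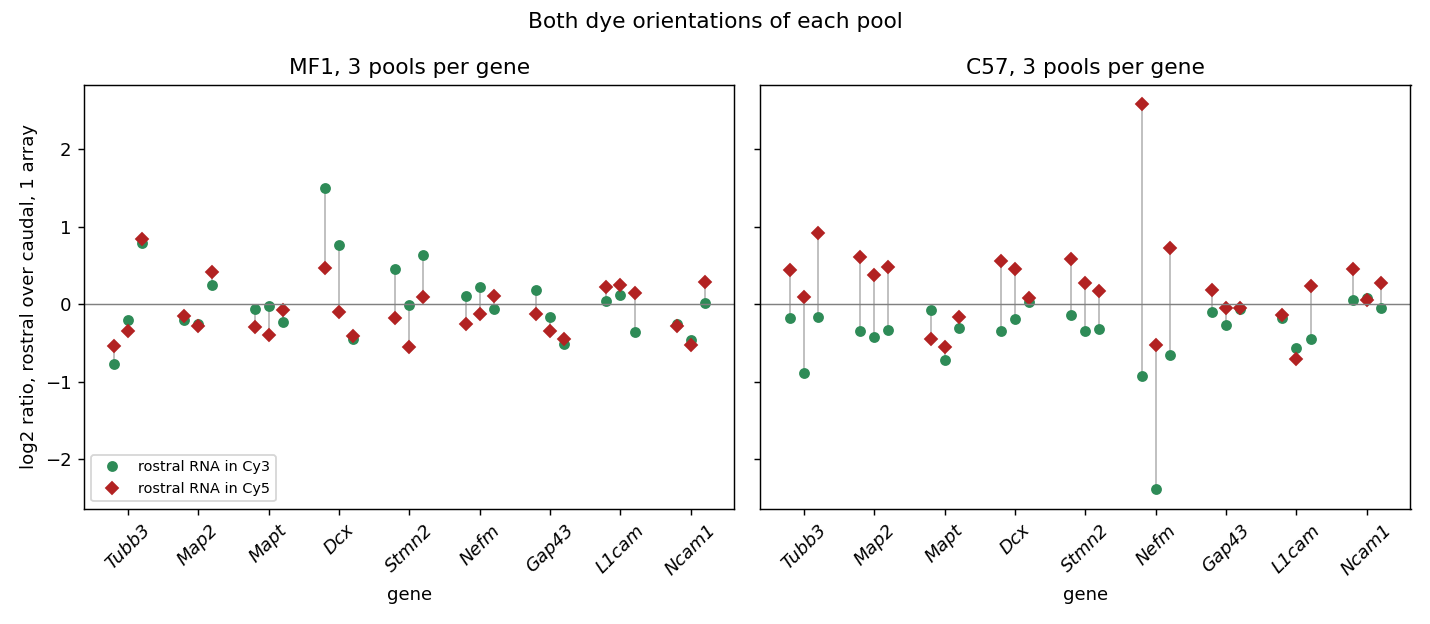
Log2 ratio of rostral over caudal cortex on each array (vertical axis) for the 9 tested genes (horizontal axis), with green circles for rostral RNA in Cy3 and red diamonds for rostral RNA in Cy5; a grey line joins both arrays of a pool, with MF1 in the left panel and C57 in the right. In C57 all red points of Tubb3, Map2 and Stmn2 lie above 0 and all green points below it, whereas every point of Mapt lies below 0 in both panels.

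Other genes of the same structures were taken from fixed lists, and 0 genes of any list passed over all features (limma). Of 13 other tubulins tested, 11 were above 0 and 2 below, with a median of 0.08, but without MF1 pool 3 6 were above and 7 below, with a median of -0.02. List values without that pool were computed after seeing the data. The genes of smallest p were Tubd1, delta-tubulin of centrioles, at 0.35 ± 0.58 (SD, n = 6), and Tuba8, an alpha-tubulin, at -0.28 ± 0.42. The median of the tubulin list was -0.14 and -0.18 in MF1 pools 1 and 2 and 0.28 in MF1 pool 3, the same sides of 0 as Tubb3. Of 20 other microtubule-binding proteins 9 were above 0 and 11 below, with a median of -0.04, and 1 in each direction had an unadjusted p under 0.05. Without MF1 pool 3, 7 of 19 were above 0. The genes of smallest p were Gprin1, a neurite outgrowth protein, at 0.50 ± 0.48 and Map9, a spindle and microtubule protein, at -0.47 ± 0.41. Higher and lower calls of this kind made up 4.34% and 4.64% of all features.

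Of 7 stathmins and CRMP proteins 5 were above 0, with a median of 0.08 and 0 at an unadjusted p under 0.05. Without MF1 pool 3, 4 were above and 3 below, with a median of 0.17. Stmn1, the stathmin of dividing and young neural cells, was at 0.25 ± 0.14 (SD, n = 6) and Stmn4, a neuronal stathmin, at 0.22 ± 0.31. Of 5 other intermediate filament genes 2 were above 0, with a median of -0.16 and 0 at an unadjusted p under 0.05. Ina, the neuronal alpha-internexin, was at -0.21 ± 0.30 and Vim, vimentin of radial glia, at -0.16 ± 0.18. Of 22 growth cone and actin regulators 11 were above 0 and 11 below, with a median of -0.01 and 1 lower at an unadjusted p under 0.05. Without MF1 pool 3, 8 were above and 14 below. The lower one was Vasp, an actin regulator, at -0.31 ± 0.41, with -0.62 in C57 and 0.0022 in MF1. Pfn1, profilin, an actin-binding protein, came next at -0.36 ± 0.49, with -0.68 in C57 and -0.05 in MF1.

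Of 14 other immunoglobulin-type adhesion molecules 6 were above 0 and 8 below, with a median of -0.09 and 1 lower at an unadjusted p under 0.05. This was Cadm3, a synaptic adhesion molecule, with no value in C57 pool 2. The mean of its 5 pools was -0.32 (SD 0.47), with -0.82 in C57 and 0.01 in MF1. Alcam, an adhesion molecule of growing axons, was at 0.26 ± 0.16 and above 0 in 6 of 6 pools. Of 15 axonal motors and tau kinases 7 were above 0 and 8 below, with a median of -0.02 and 0 at an unadjusted p under 0.05, and without MF1 pool 3 10 were above and 5 below. Kif1b, a kinesin of axonal transport, was at -0.26 ± 0.19 and, like Mapt, below 0 in 6 of 6 pools. Dync1h1, the dynein heavy chain, was at -0.48 ± 0.51, below 0 in 5 of 6.

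**Figure D4:**
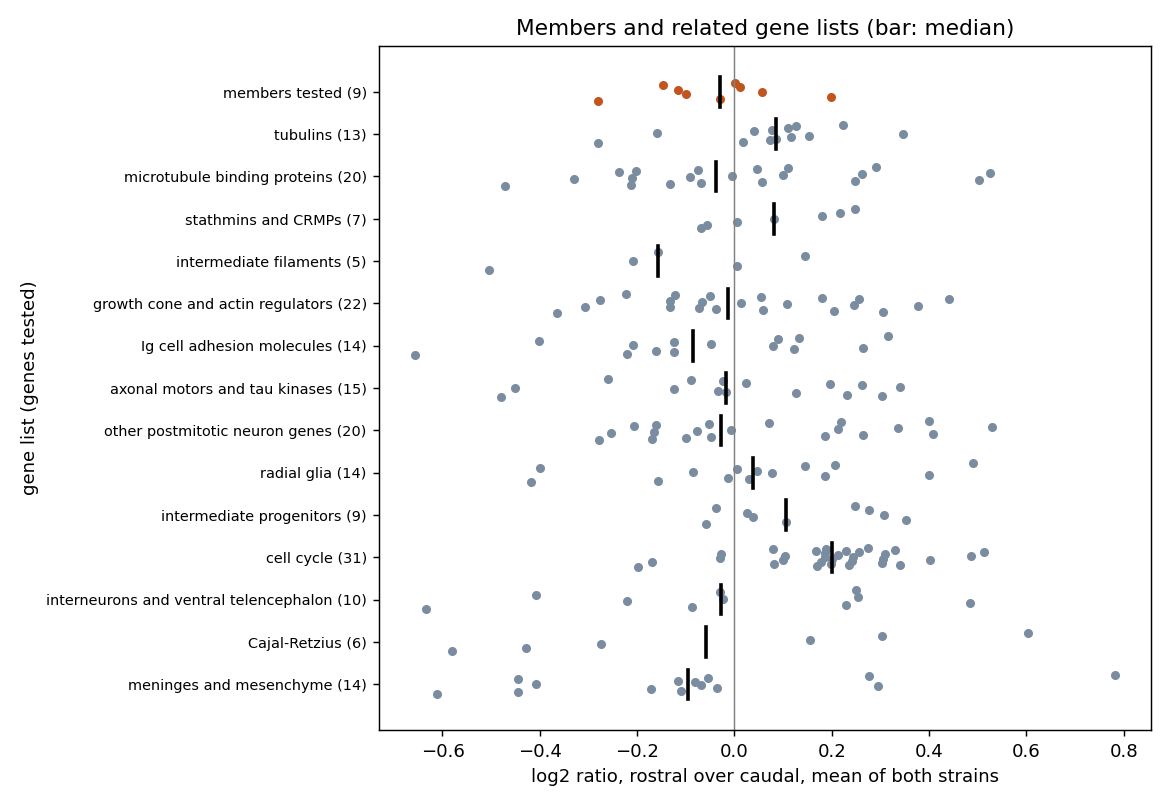
Mean log2 ratio of rostral over caudal cortex over both strains (horizontal axis) of each tested gene in the 9 members (orange) and in 14 related lists (grey-blue), 1 row per list with the number of genes tested in brackets; black bars are medians and the vertical offset within a row has no meaning. The members' median is -0.03 and the cell cycle list has 27 of 31 genes above 0, with a median of 0.20.

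Lists of cell types were set beside the members. Other genes of postmitotic neurons had a median of -0.03 over 20 genes, close to that of the members, with 9 above 0 and 11 below. The transcription factors Foxp1 and Bcl11b were above 0 in 6 of 6 pools, at 0.40 ± 0.15 and 0.41 ± 0.24 (SD, n = 6). Intermediate progenitor genes had a median of 0.11, with 7 of 9 above 0, Rnd2 at 0.35 ± 0.15 and Insm1 at 0.31 ± 0.17. Cell cycle genes had a median of 0.20, with 27 of 31 above 0, Rrm2 at 0.51 ± 0.28 and Pttg1 at 0.40 ± 0.12. Radial glia genes had a median of 0.04, with Hes5 at 0.49 ± 0.50 and Tnc at -0.42 ± 0.21. At an unadjusted p under 0.05 (limma), 2 postmitotic, 3 intermediate progenitor and 7 cell cycle genes were higher and 0 lower. Of the radial glia genes 2 were higher and 2 lower. Over all features 51.6% were above 0, and 4.34% were higher and 4.64% lower at such a p. The pool medians of the postmitotic list ran from -0.16 in MF1 pool 2 to 0.20 in C57 pool 3, and those of the members from -0.26 in MF1 pool 2 to 0.13 in C57 pool 1.

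Genes of other cells that the tissue could hold were read in the same way. Genes of interneurons and the ventral telencephalon had a median of -0.03 over 10 genes, with Dlx5 at -0.63 ± 0.32 (SD, n = 6) and Erbb4 at 0.48 ± 0.62. Cajal-Retzius genes had a median of -0.06 over 6 genes, with Ebf1 at 0.60 ± 1.42 (n = 4) and Cxcr4 at -0.58 ± 0.60. Without MF1 pool 3 the Cajal-Retzius median was -0.27 over 5 genes. Genes of meninges and mesenchyme had a median of -0.10 over 14 genes, 3 above 0 and 11 below and 3 lower and 1 higher at an unadjusted p under 0.05, with Twist2 at -0.44 ± 0.49 and Zic1 at 0.78 ± 0.31. In MF1 that median was 0.0018 and in C57 -0.15. The part of these cells in the members' ratios was not tested.

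The genes whose pool values were most like the median of the 9 members over 6 pools were Thbs4, Zfand5, Tmem223, Ormdl1 and Atp5j2. Their Pearson correlations with it ran from 0.988 for Thbs4 and Zfand5 to 0.978 for Ormdl1 and Atp5j2. They were picked as the highest of 8870 named genes, which makes them a description of 6 points.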

How the data were processed

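Each array held rostral and caudal cortex RNA of one pool in Cy3 and Cy5. The values were the log2 dye ratios the authors deposited in the series matrix, 1 per probe. No source used here names the scanner, the normalization or the build. A ratio at the ceiling of 16.61, log2 of 1e+05, was taken as missing (701 values), and intensities were not used here. Which dye was the numerator was inferred from genes of known gradient as Cy5 over Cy3.

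Each array was centred on its median, arrays with rostral RNA in Cy3 were turned, and both arrays of a pool were averaged. Probes of one gene were averaged: 16864 of 21998 probes had 1 symbol, 139 several and 4995 none, the last kept as unnamed features. A feature needed 2 pools of each strain. limma 3.58.1 in R 4.3.3 (lmFit, eBayes) fitted a mean per strain, with Benjamini-Hochberg adjustment over all features at 0.05. Tested on simulated data of this layout, with noise drawn independently for each pool, it recovered 64% of features changed by 1 log2 unit and 97% of those changed by 2. No smaller change was simulated, and these shares may not hold for the real pools. There 0 of 14418 features passed over both strains, and Sfrp1, at 1.04 ± 0.19 (SD, n = 6 pools), was among those that did not. The number of pools limits the precision. The dye orientations, centring, scaling, filters, blocks and left-out pools were varied. All 10 members were named, and from each list the genes past the adjusted threshold or else the 2 of smallest p. The members and the lists were chosen with earlier results of these data known.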

Additional observations from a re-analysis of the deposited data

Results flagged for a closer look

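Mapt in C57 pool 2, at -0.635, lay farther from the other pools than Dixon's 95% limit for 6 values allows. The gap to the nearest pool was 0.764 of the whole range. It was the only one of the 9 tested members past that limit, and chance flags about 1 in 20 groups. Both arrays of this pool were low, at -0.72 and -0.55.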

How the results depend on the processing

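Of the members, 0 passed at an adjusted p under 0.05 under any alternative. Mapt stayed below 0 over both strains in 15 of 15 alternatives, from -0.47 to -0.22. Its unadjusted p (limma) was under 0.05 only in part of them. There were 0 members at such a p without MF1 pool 1, MF1 pool 2 or C57 pool 2, beside 6.09%, 6.84% and 7.63% of features. With rostral RNA in Cy5 alone there were also 0, beside 15.1%. The 1 member was Dcx and not Mapt without MF1 pool 3, beside 10.2%. It was Nefm and not Mapt with rostral RNA in Cy3 alone, beside 14.8%. Without centring there were 2, Mapt and Gap43, beside 15% of features. The 12 arrays fitted with the pool as a random block gave 25 features passing over both strains, 3 in MF1 and 11 in C57. With a dye term per strain, added after seeing the data, there were 21 over both strains and 9 in C57, and among features complete on 12 arrays 6. Arrays with rostral RNA in Cy3 alone gave 188 features in C57 and those with it in Cy5 alone 118; such a single orientation keeps the dye effect. Without centring, values turned for Tubb3 (-0.19 over both strains, -0.12 in C57), Map2 (-0.18, -0.10), Stmn2 (-0.13, -0.12 in C57, -0.14 in MF1, difference -0.016), Dcx in C57 (-0.065), L1cam in MF1 (-0.15) and Ncam1 in C57 (-0.017). With scaled arrays Map2 turned (-0.0068), as did Nefm in MF1 (0.0011). With Ncam1 probe 3 alone it was 0.17, and 0.14 in MF1. With rostral RNA in Cy3 alone, Tubb3 was -0.23 (C57 -0.41, difference 0.35), Map2 -0.22 (C57 -0.37, difference 0.30), Dcx -0.17 and Stmn2 -0.27 in C57, and Nefm 0.091 and L1cam -0.066 in MF1. With it in Cy5 alone, Nefm was 0.42 (C57 0.93, difference -1.02), L1cam 0.0005, Ncam1 0.043, Dcx -0.012 in MF1 (difference -0.38), Stmn2 -0.21 in MF1 (difference -0.56) and Gap43 0.027 in C57. The cause of the changes named here was not tested. Leaving out 1 pool at a time moved the values over both strains from -0.21 to 0.16 for Tubb3, -0.081 to 0.07 for Map2, -0.016 to 0.15 for Stmn2, -0.36 to 0.22 for Nefm and -0.12 to 0.043 for Ncam1. In MF1 the ranges were -0.048 to 0.66 for Dcx, -0.46 to 0.27 for Tubb3, -0.22 to 0.078 for Map2, -0.071 to 0.25 for Stmn2 and -0.025 to 0.036 for Nefm, and in C57 -0.13 to 0.26 for Tubb3, -0.054 to 0.094 for Stmn2 and -0.71 to 0.43 for Nefm. For the difference between strains they were -0.15 to 0.56 for Dcx, -0.50 to 0.24 for Tubb3, -0.29 to 0.015 for Map2, -0.11 to 0.21 for Stmn2, -0.43 to 0.71 for Nefm, 0.07 to 0.27 for Mapt, 0.20 to 0.47 for L1cam, -0.31 to -0.06 for Gap43 and -0.53 to -0.20 for Ncam1. The replicate block for the difference between strains left 0 features passing and 439 of 10596 at an unadjusted p under 0.05, against 407 of the same features without it. It left L1cam at 0.37 and Ncam1 at -0.35. Pools of one number share only that number: their deviations had Pearson correlations of -0.106, 0.049 and 0.002.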
